A study of Mus musculus with 6 samples.

Results

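The genes described here are the transcription factor NRF2 (gene Nfe2l2), its inhibitor KEAP1 (Keap1) and 8 genes that NRF2 is known to drive, Nqo1, Gclc, Gclm, Txnrd1, Srxn1, Hmox1, Prdx1 and G6pdx. They were chosen by symbol, with earlier results of these data known, and all 10 had a row among the 24346 gene rows of the liver table. Livers of 3 control and 3 lipophagy-induced mice, C57BL/6 in the labels and C57BL/6J in the methods, were compared. All were male and had been fed CDAHFD, a high-fat diet without choline whose protein is replaced by amino acids, for 6 weeks from an age of 8 weeks to model nonalcoholic steatohepatitis (NASH). They then returned to normal chow and were analysed 2 weeks after the virus was given. Both groups carried an AAV8 virus with a liver-specific thyroxine-binding globulin promoter, so that the transgene was meant for hepatocytes. Control mice received LDTS-LIR mut, which joins the lipid droplet-targeting sequence of perilipin 1 to an LC3-interacting region that cannot bind, and lipophagy-induced mice received LDTS-eLIR, in which that region binds autophagosomes. The labels name the groups Control and Lipophagy and number the livers without naming animals, so if livers of a group were not separate animals the p-values would measure technical spread. The comparison asks how the antioxidant program of the liver differed once lipid droplets were sent to autophagosomes.

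KEAP1 holds NRF2 in the cytosol and hands it to a ubiquitin ligase, so that NRF2 is rapidly destroyed in unstressed cells. Oxidants and electrophiles modify KEAP1, NRF2 then escapes to the nucleus, pairs with small MAF proteins and binds antioxidant response elements near genes for glutathione synthesis, thioredoxin recycling, quinone reduction, haem breakdown and NADPH supply. In fatty liver the pathway is known as a defence against lipid peroxides, and because NRF2 is controlled mainly as a protein, its mRNA is not a measure of its activity.

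The element has a short core, TGACNNNGC, which was searched on both strands of the RefSeq promoter windows (GRCm38.p6, 250 bases before to 50 after each start). Of the 10 genes 8 had an entry, with 10 windows in all, and 6 genes had 1 window with the core. Of all 32851 RefSeq windows, 12.4% held it, and of all symbols with an entry 14.0% had it in a window. The matches are shown as letters near the starts of these 6 genes. Because 8 of the 10 were chosen as genes that NRF2 is known to drive, holding the core is not independent of that choice. Each line gives 29 bases on the strand of the match, with the core in capitals.
Nfe2l2, chr2:75704885-75704913: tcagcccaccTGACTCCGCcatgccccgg
Gclm, chr3:122245413-122245441: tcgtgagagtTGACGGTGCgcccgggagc
Txnrd1, chr10:82859104-82859132: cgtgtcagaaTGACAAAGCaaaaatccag
Srxn1, chr2:152105542-152105570: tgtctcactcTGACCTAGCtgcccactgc
Prdx1, chr4:116685456-116685484: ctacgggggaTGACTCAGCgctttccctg
G6pdx, chrX:74428919-74428947: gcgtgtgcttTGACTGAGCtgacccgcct
The centre of the core lay 236 bases upstream of the start that defines the window in Nfe2l2, 130 in Gclm, 88 in Txnrd1 (1 of its 3 windows), 129 in Prdx1 and 53 in G6pdx, and 32 bases downstream of it in Srxn1. For Gclm and Txnrd1 that start lies inside the gene coordinates given with their values, not at their first base. The Prdx1 match also contains TGACTCA, the letters bound by AP-1 factors. Keap1 and Nqo1 had an entry without these letters, which says nothing about elements outside the window, and Gclc and Hmox1 had none. A match describes letters and is not a bound site.
For Prdx1, the gene whose mean differed in the opposite direction to the others, the 250 bases before the start (chr4:116685349-116685598, plus strand) are given with the same match in capitals as read on the gene's strand.
Prdx1 promoter: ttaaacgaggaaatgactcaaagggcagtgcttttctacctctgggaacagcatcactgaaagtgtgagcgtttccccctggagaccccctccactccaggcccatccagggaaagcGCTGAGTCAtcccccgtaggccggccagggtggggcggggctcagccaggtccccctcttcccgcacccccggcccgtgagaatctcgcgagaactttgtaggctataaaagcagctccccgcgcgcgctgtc

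Values are FPKM as deposited, that is fragments relative to transcript length and to the mapped fragments of the library. Steps of single fragments among low genes gave an estimated depth of 22.6 to 34.0 (in units of 1e6 fragments) per liver. The liver identity of the samples was clear from hepatocyte markers, with albumin (Alb) at 35470 to 64089 FPKM. The summed level of 10 hepatocyte markers was 58272 to 64892 FPKM in the controls against 70285 to 93053 FPKM after lipophagy induction, but without Alb the sum of the other 9 was 22802 to 26062 against 25276 to 28964 FPKM, which overlapped. Of the 10 markers 4 (Alb, Ttr, Ass1 and Serpina1c) lay wholly above the controls, where 15.4% of all tested genes did, and Apoa1 and Apob had a lower mean. The sum of all FPKM was also higher in the lipophagy livers, at 709993 to 782392 against 622696 to 681138. Summed red blood cell markers reached 483 FPKM in lipophagy liver 2, against 109 to 136 FPKM in control livers. Plin1, part of which is in both vectors, was at 116 to 160 FPKM in the controls against 81.9 to 97.9 FPKM after lipophagy induction, and vector and endogenous reads cannot be told apart here. All 10 genes were among the 11493 tested, whose mean over the livers was 0.5 FPKM or more, and of these 3 passed an adjusted p of 0.05 in limma, which is 0.0261%. These were Cish, Foxa1 and Phlda1, all lower after lipophagy induction and none of them among the 10.

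A lower mean in the lipophagy-induced livers was found for 9 of the 10 genes, by 26.5% in Hmox1, 21.6% in G6pdx and 21.2% in Srxn1, against 45.5% of all tested genes, while Prdx1 had a higher mean. In 6 genes, Nfe2l2, Nqo1, Txnrd1, Srxn1, Hmox1 and G6pdx, the 3 lipophagy livers were all below the 3 control livers, that is 60.0% of the list, against 10.8% of all tested genes. No gene of the 10 lay wholly above, against 15.4% of all tested genes. Because the genes were chosen with earlier results of these data known, the shares given here describe the list and do not test it. None of the 10 passed the adjustment over all tested genes, with adjusted p from 0.124 to 0.975 (limma). At an unadjusted p under 0.05, 5 genes were lower (Nfe2l2, Txnrd1, Srxn1, Hmox1 and G6pdx), against 7.97% of all tested genes, and 0 were higher, against 11.5%. This count of 5 was 2 without control liver 2, 2 without control liver 3 and 3 without lipophagy liver 3. The median log2 change of the 10 genes was -0.24, on the log2(FPKM + 1) scale, against 0.020 over all tested genes. The median was -0.15 without lipophagy liver 3 and -0.26 without lipophagy liver 2. Some markers of other cells were lower in the same livers. The summed level of 7 stellate cell markers, 6 of them with a lower mean, was 39.5 to 43.3 FPKM in the controls against 27.4 to 31.7 FPKM after lipophagy induction. That of 8 lymphocyte markers was 4.46 to 4.75 against 3.42 to 3.93 FPKM. Neither sum overlapped between the groups. Without the collagen genes Col1a1 and Col3a1 the other 5 stellate cell markers summed to 10.2 to 11.96 against 9.62 to 11.5 FPKM, which overlapped, and Lrat had a higher mean. Only 2 of the 8 lymphocyte markers reached 0.5 FPKM and were tested, both with overlapping groups, and Cd4 had a higher mean. The sums of macrophage, neutrophil, bile duct, red blood cell and sinusoidal endothelial markers overlapped between the groups. Of the tested markers, 4 of 6 had a higher mean in sinusoidal endothelium and 6 of 6 in red blood cells. No marker of these lists was at 0 in all livers, and the part of these cells in the levels of the 10 genes was not tested. In bulk tissue fewer cells of a type and less RNA per cell cannot be told apart.

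**Figure D1:**
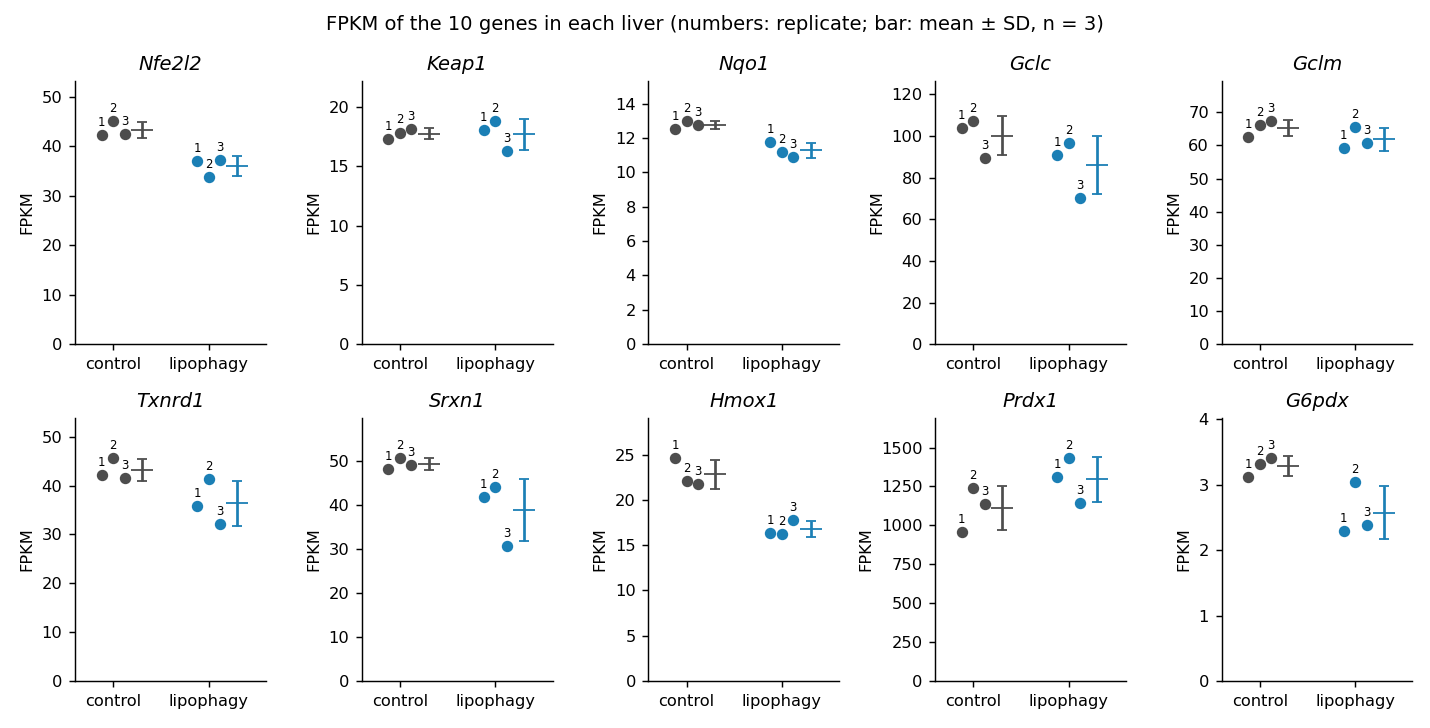
FPKM (vertical axes, each from 0) of the 10 genes in each of 3 control and 3 lipophagy livers, with the replicate number over each point and the mean ± SD beside the points. The groups did not overlap in Nfe2l2, Nqo1, Txnrd1, Srxn1, Hmox1 and G6pdx, and they overlapped in Keap1, Gclc, Gclm and Prdx1.

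Nfe2l2 (chr2:75675513-75704663, GRCm38) encodes NRF2 itself. Control livers 1, 2 and 3 read 42.2, 45.1 and 42.4 FPKM, and lipophagy livers 1, 2 and 3 read 37.1, 33.7 and 37.3 FPKM. The groups were apart by more than their spread, 43.2 ± 1.61 against 36.0 ± 1.98 FPKM (SD, n = 3), a mean 16.7% lower. A log2 change as low as that of Nfe2l2 was found in 7.43% of all tested genes. Its log2 change was -0.26 (standard error 0.078, 95% interval -0.44 to -0.079), with an unadjusted p of 0.0105 and an adjusted p of 0.170 (limma), and -0.40 with quantile normalization.

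Keap1 (chr9:21229730-21239332) encodes the sensor that leads NRF2 to destruction. It read 17.3, 17.8 and 18.1 FPKM in the controls against 18.0, 18.8 and 16.3 FPKM after lipophagy induction. The lipophagy values lay on both sides of the control values. The log2 change was -0.0057, with a 95% interval of -0.19 to 0.18, so a difference of that size in either direction was not resolved. Leaving out control liver 3 or lipophagy liver 3 gave a log2 change of 0.0090 or 0.050, and quantile normalization gave -0.092. The ratio of Nfe2l2 to Keap1 within a liver, which any factor common to a liver leaves as it is, was 2.45, 2.53 and 2.34 in the controls against 2.06, 1.79 and 2.29 after lipophagy induction. Lipophagy liver 3 came close to control liver 3, but all ratios were lower after lipophagy induction (by an exact permutation test, two-sided, p = 0.1, the smallest that 3 against 3 allows, and 0.133 adjusted over 4 ratios). The log2 difference of this ratio was -0.26, and -0.17 without lipophagy liver 2.

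Gclc and Gclm encode the catalytic and the modifier subunit of glutamate-cysteine ligase, the rate-limiting enzyme of glutathione synthesis. Gclc (chr9:77754535-77794489) was at 104, 107 and 89.4 FPKM in the controls against 91.0, 96.8 and 70.3 FPKM after lipophagy induction. The groups overlapped, and the log2 change of -0.23 (95% interval -0.53 to 0.079, adjusted p = 0.370, limma) was -0.089 without lipophagy liver 3 and -0.38 with quantile normalization (unadjusted p = 0.0186, limma). Gclm (chr3:122245487-122267215) was at 62.6, 66.1 and 67.3 FPKM in the controls against 59.2, 65.6 and 60.6 FPKM after lipophagy induction. These groups overlapped as well, with a log2 change of -0.080 (95% interval -0.26 to 0.10, adjusted p = 0.586, limma). It was -0.050 without lipophagy liver 1, -0.12 without lipophagy liver 2 and -0.24 with quantile normalization (unadjusted p = 0.0127, limma). The ratio of catalytic to modifier mRNA was 1.54 ± 0.182 in control and 1.39 ± 0.203 in lipophagy livers (SD, n = 3; two-sided exact permutation test, p = 0.5). Its log2 difference of -0.15 was -0.022 without lipophagy liver 3, -0.088 without control liver 1, -0.25 without control liver 3 and -0.23 without lipophagy liver 1. Exons of Gclm overlap 2 other annotated genes and those of Keap1 overlap 1.

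Txnrd1 encodes cytosolic thioredoxin reductase, which uses NADPH to keep thioredoxin reduced. It was at 42.2, 45.7 and 41.5 FPKM in the controls against 35.7, 41.3 and 32.0 FPKM after lipophagy induction (chr10:82833951-82897724). Lipophagy liver 2 was just under the lowest control liver, and the other two were well below. On the log2 scale the change was -0.25 (standard error 0.10, unadjusted p = 0.0440, adjusted p = 0.248, limma), and it was -0.16 without lipophagy liver 3, -0.34 without lipophagy liver 2 and -0.39 with quantile normalization.

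Srxn1 (chr2:152105524-152111376) encodes sulfiredoxin, which repairs peroxiredoxins that peroxide has over-oxidised. Control livers were close together at 48.3, 50.8 and 49.1 FPKM, while lipophagy livers were at 41.8, 44.2 and 30.8 FPKM. Each lipophagy liver was below each control liver, and lipophagy liver 3 was far below the rest. The log2 change was -0.35 (standard error 0.13, unadjusted p = 0.0274, adjusted p = 0.215, limma), and -0.20 without lipophagy liver 3.

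Prdx1 (chr4:116685599-116700000) encodes peroxiredoxin 1, an abundant thiol peroxidase that sulfiredoxin and thioredoxin regenerate. It was by far the most abundant of the 10, at 958, 1242 and 1139 FPKM in the controls against 1313, 1434 and 1144 FPKM after lipophagy induction. Lipophagy liver 3 lay within the control livers and the other two lay above them. The log2 change was 0.22 (95% interval -0.079 to 0.52, adjusted p = 0.371, limma), 0.12 without control liver 1, 0.15 without lipophagy liver 2, and 0.029 with quantile normalization, so the difference was not resolved. Set against its partners in the same liver, Prdx1 gave ratios that did not overlap between the groups. The ratio of Prdx1 to Srxn1 was 19.8, 24.4 and 23.2 in the controls against 31.4, 32.4 and 37.1 after lipophagy induction. The ratio of Txnrd1 to Prdx1 was 0.0440, 0.0368 and 0.0365 in the controls against 0.0272, 0.0288 and 0.0280 after lipophagy induction. In both ratios the gap between the groups was wider than the range within either (two-sided exact permutation tests, each p = 0.1, and 0.133 adjusted over 4 ratios).

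**Figure D2:**
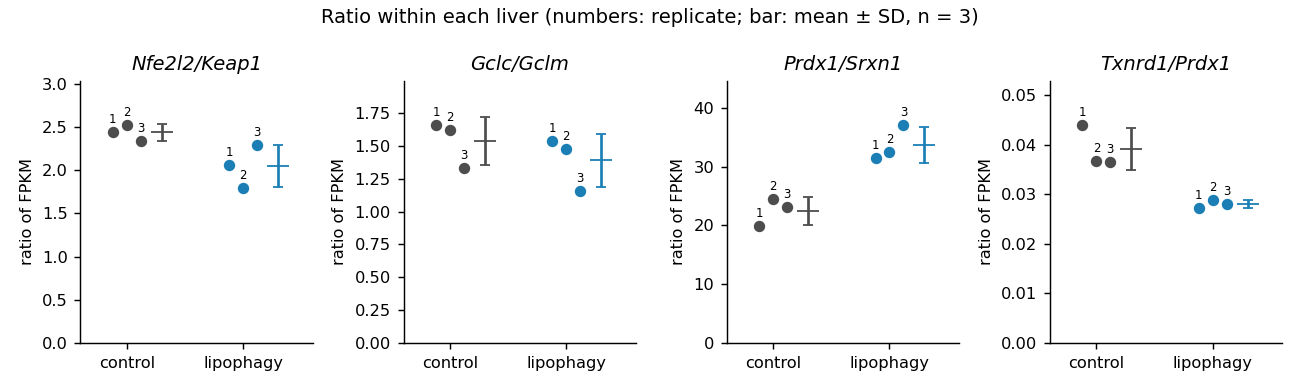
Ratios of FPKM between 2 of the genes within each liver (vertical axes from 0), for 3 control and 3 lipophagy livers, with replicate numbers and the mean ± SD. All lipophagy points lay above the controls in Prdx1/Srxn1 and under them in Nfe2l2/Keap1 and Txnrd1/Prdx1, and Gclc/Gclm overlapped.

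Nqo1 (chr8:107388225-107403205) encodes a quinone reductase that is often read as a sign of NRF2 activity. It was at 12.5, 12.98 and 12.7 FPKM in the controls against 11.7, 11.2 and 10.9 FPKM after lipophagy induction. Both groups were tight and did not overlap, although the means differed by 11.5% of the control mean. The log2 change of -0.16 had a 95% interval of -0.33 to 0.0019 and an unadjusted p of 0.0521 (adjusted p = 0.260, limma).

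Hmox1 (chr8:75093618-75100593) encodes the inducible haem oxygenase, which opens haem into biliverdin, iron and carbon monoxide. It was at 24.6, 22.1 and 21.7 FPKM in the controls against 16.3, 16.2 and 17.8 FPKM after lipophagy induction. The gap between the groups exceeded the range within either, and the mean was 26.5% lower. As a log2 change this was -0.42 (standard error 0.083, 95% interval -0.61 to -0.23), with an unadjusted p of 0.000942, the lowest of the 10 genes, and an adjusted p of 0.124 (limma). The change lay between -0.51 and -0.37 in the alternatives tried. Hmox1 is also made by macrophages that clear red cells. Of 9 tested macrophage markers 5 were lower and 4 higher in the lipophagy livers, and the summed level of 10 markers was 492 to 640 FPKM in the controls against 480 to 605 FPKM after lipophagy induction. In 3 of the 9 the lipophagy livers were all below the controls, namely Cd68 (36.8 ± 5.50 and 27.9 ± 3.09 FPKM), Csf1r (16.1 ± 0.417 and 13.02 ± 0.796 FPKM) and Itgam (1.17 ± 0.144 and 0.829 ± 0.153 FPKM), and in 1, the Kupffer cell marker Vsig4 (12.7 ± 1.36 and 17.1 ± 2.28 FPKM), they were all above. Over all tested genes, 10.8% lay wholly below and 15.4% wholly above the controls. These 4 markers were singled out after their values were seen. The part of these cells in the Hmox1 difference was not tested.

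G6pdx (chrX:74409483-74428880) encodes glucose-6-phosphate dehydrogenase, which makes NADPH at the entry of the pentose phosphate pathway. It was the least abundant of the 10, at 3.11, 3.32 and 3.41 FPKM in the controls against 2.30, 3.04 and 2.38 FPKM after lipophagy induction. Lipophagy liver 2 was close to control liver 1, and the groups did not overlap. This came to a log2 change of -0.27 (standard error 0.098, unadjusted p = 0.0262, adjusted p = 0.212, limma), and -0.35 with a pseudocount of 0.1. It rested on an estimated 136 to 290 fragments per liver, so counting error alone came to 8.57% in the liver with the fewest. One exon region overlaps Ikbkg on the opposite strand. The related gene G6pd2 was listed at 0 in all livers, and whether reads were shared between it and G6pdx was not tested.

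**Figure D3:**
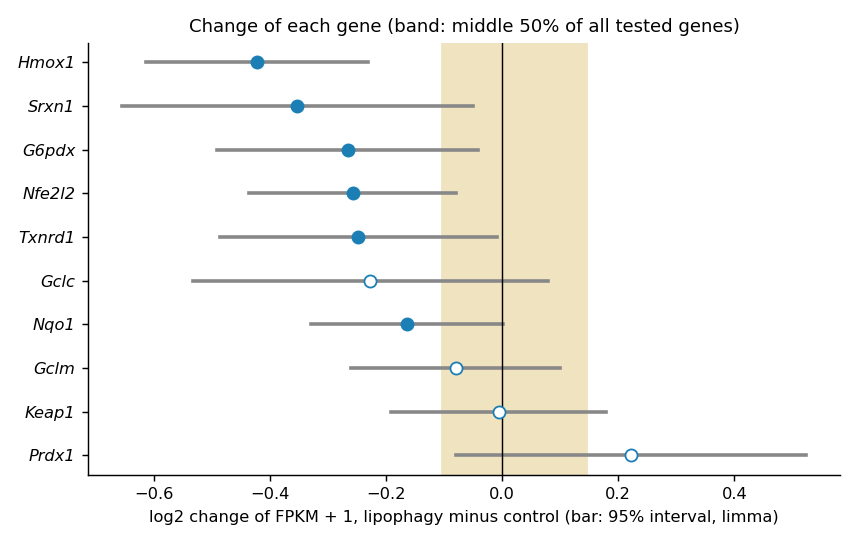
Log2 change of FPKM + 1 (horizontal axis, lipophagy minus control) of each gene with its 95% interval from limma, filled where the groups did not overlap and open where they did. The band spans -0.10 to 0.15, the lower to the upper quartile of all tested genes, and 6 of the 10 genes, from Hmox1 at -0.42 to Gclc at -0.23, and Nqo1 at -0.16, lay left of it, with Prdx1 right of it at 0.22.

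Averaged over the 10 genes, the deviation from each gene's own mean on the log2 scale was 0.059, 0.14 and 0.074 for controls 1, 2 and 3, against -0.076, 0.0026 and -0.20 for lipophagy livers 1, 2 and 3. Lipophagy liver 3 was thus the lowest and lipophagy liver 2 was close to the mean. Lipophagy liver 3 held the lowest value of 5 genes, Keap1, Nqo1, Gclc, Txnrd1 and Srxn1, and control liver 2 the highest value of 5, Nfe2l2, Nqo1, Gclc, Txnrd1 and Srxn1. Of the others, Nfe2l2 and Hmox1 were lowest in lipophagy liver 2, Gclm and G6pdx in lipophagy liver 1, and Prdx1 in control liver 1. By mean level over the 6 livers the order was Prdx1, Gclc, Gclm, Srxn1, Txnrd1, Nfe2l2, Hmox1, Keap1, Nqo1 and G6pdx, and this order was not the same in both groups. The values of Txnrd1 and Nfe2l2 overlapped in each group, and those of Srxn1 and Txnrd1 overlapped after lipophagy induction. Hmox1 was above Keap1 in the controls (22.8 ± 1.59 and 17.7 ± 0.439 FPKM) but not after lipophagy induction (16.8 ± 0.891 and 17.7 ± 1.30 FPKM), where their values overlapped. An estimated 356 or more fragments per liver stood behind each of the 9 genes other than G6pdx.

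**Figure D4:**
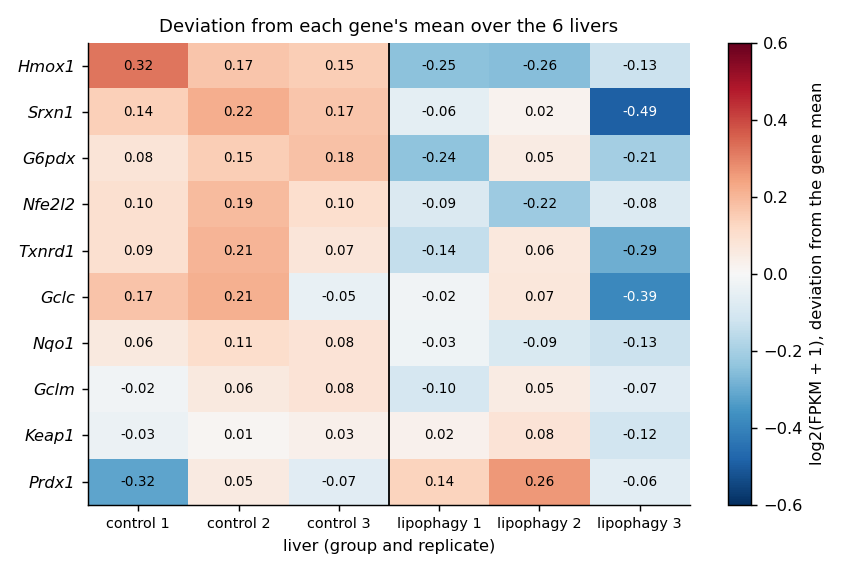
Deviation of log2(FPKM + 1) from each gene's mean over the 6 livers, as colour and number, with genes in rows from the most negative change and livers in columns. Hmox1 and Nfe2l2 were lowest in lipophagy liver 2, whereas Srxn1, Gclc and Txnrd1 were lowest in lipophagy liver 3, and Prdx1 was lowest in control liver 1.

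Genes whose pattern over the 6 livers was most like that of Nqo1 or Hmox1 were taken by the smallest root mean square difference of the deviations of log2(FPKM + 1). For Nqo1 they were Foxf1 (0.020), Cc2d2a (0.024) and Lrp10 (0.025). For Hmox1 they were Csf1 (0.032), a macrophage growth factor, Mid1 (0.033) and Frzb (0.045). Csf1 was at 2.63 to 3.24 FPKM in the controls against 1.82 to 1.96 FPKM after lipophagy induction. Likeness over 6 livers that share a group difference is a description.

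Of the wider antioxidant pathway, 96 genes in 7 lists, 94 were tested and 0 passed the adjustment (limma). At an unadjusted p under 0.05, 12 were higher and 8 lower, where 11.5% of all tested genes were higher and 7.97% lower. With the authors' scaling 61 had a higher and 33 a lower mean, where 45.5% of all tested genes had a lower mean. The median log2 change was 0.078, opposite in sign to that of the 10 genes. Quantile normalization lowered the median of all 7 lists, as given per list, and took the median of the 10 genes to -0.31. Genes named below by their unadjusted p alone, the other peroxiredoxins and Slc7a11 were singled out after their values were seen.

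Among 13 genes that control NRF2, 7 had a higher and 6 a lower mean, with a median log2 change of 0.013. This median was -0.064 with quantile normalization, -0.067 without control liver 1 and -0.085 without lipophagy liver 3. It was 0.059 without control liver 2 and 0.067 without lipophagy liver 1. Bach1, a repressor that competes with NRF2 at its elements, had the most negative change (-0.43, standard error 0.14, adjusted p = 0.182, limma). It was at 5.19 ± 0.769 FPKM in control and 3.61 ± 0.734 FPKM in lipophagy livers (SD, n = 3), with overlapping groups. Sqstm1 encodes p62, an autophagy receptor that also binds KEAP1 and is itself an NRF2 target, and it was at 258, 276 and 276 FPKM in the controls against 235, 244 and 208 FPKM after lipophagy induction (log2 change -0.24, unadjusted p = 0.0288, adjusted p = 0.219, limma). Each lipophagy liver was below each control liver. Syvn1, a ubiquitin ligase of the endoplasmic reticulum that can act on NRF2, had the most positive change (0.71, standard error 0.19, adjusted p = 0.148, limma), from 20.5 ± 3.74 to 34.5 ± 7.76 FPKM. Dpp3, a KEAP1-binding peptidase, was at 20.4 ± 0.842 and 25.9 ± 4.23 FPKM.

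Genes of glutathione synthesis and recycling had a median of 0.059 (8 of 12 tested with a higher mean), which was 0.019 or 0.039 on leaving out control liver 1 or 3, 0.033 on leaving out lipophagy liver 2, and -0.0069 with quantile normalization. Chac1, which breaks glutathione down, had the most negative change (-0.52, standard error 0.12, adjusted p = 0.134, limma), from 3.44 ± 0.611 to 2.09 ± 0.237 FPKM, and Abcc4, an exporter, the most positive (0.22), with overlapping livers. The Abcc4 change was 0.38 without control liver 1, 0.11 without control liver 3 and 0.36 with a pseudocount of 0.1. The related Chac2 was at 19.5 ± 0.759 and 22.1 ± 0.459 FPKM. The cystine carrier gene Slc7a11, a known NRF2 target, was at 0.125 ± 0.0232 and 0.117 ± 0.0384 FPKM and was not tested.

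Thioredoxins, peroxiredoxins and sestrins other than the members had a higher mean in 12 of 13 genes and a lower mean in 1, where 45.5% of all tested genes had a lower mean. The median of 0.14 was 0.037 with quantile normalization. At an unadjusted p under 0.05 (limma), 1 gene of this list was higher, where 11.5% of all tested genes were. The log2 changes of Prdx2, Prdx3, Prdx4, Prdx5 and Prdx6 were 0.082, 0.17, 0.21, 0.21 and 0.14, each with an adjusted p of 0.291 or more (limma). Txnip, the inhibitor of thioredoxin, had the most positive change (0.38, unadjusted p = 0.0107, adjusted p = 0.170, limma), and Txnrd3 the most negative (-0.023), whose sign turned with quantile normalization (0.037) and without control liver 1 or lipophagy liver 3 (0.045 and 0.047).

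The other NADPH genes had a median of 0.16 (8 of 11 with a higher mean), which was 0.072 without lipophagy liver 1 and 0.0076 with quantile normalization. Rpia had the most positive change (0.35, standard error 0.093, adjusted p = 0.147, limma) and Pgd, the next oxidative step after G6pdx, the most negative (-0.12, standard error 0.088, adjusted p = 0.455, limma). The Pgd change was -0.074 without control liver 2, -0.068 without lipophagy liver 3 and -0.25 with quantile normalization (unadjusted p = 0.00934, limma). Idh1, a cytosolic source of NADPH, was at 160 ± 6.48 and 193 ± 12.4 FPKM.

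Conjugating and carbonyl-reducing enzymes, many of them NRF2 targets, had a median of -0.072 (14 of 23 with a lower mean), which was -0.21 with quantile normalization, 0.029 without lipophagy liver 3, -0.040 without control liver 1, -0.043 without control liver 2 and -0.11 without lipophagy liver 2. Osgin1, an oxidative stress-induced growth inhibitor, had the most negative change of all 7 lists, -0.92 (standard error 0.30, unadjusted p = 0.0156, adjusted p = 0.186, limma). It was at 152, 261 and 257 FPKM in the controls against 121, 164 and 74.2 FPKM after lipophagy induction, where lipophagy liver 3 was again lowest and control liver 1 lay below lipophagy liver 2. Gstm2 (190 ± 3.23 and 153 ± 28.4 FPKM) and Aox1 (29.5 ± 3.59 and 24.4 ± 1.70 FPKM) were lower at an unadjusted p of 0.0392 and 0.0432 (limma), and Akr7a5 (92.4 ± 4.44 and 113 ± 14.1 FPKM) was higher at 0.0294. Gsta2 had the most positive change (0.31, standard error 0.17), with overlapping livers, and it was 0.10 without lipophagy liver 1 and 0.15 with quantile normalization. In the same livers 5 of 5 tested bile duct markers had a lower mean, and the summed level of 6 was 137 to 247 FPKM in the controls against 92.0 to 196 FPKM after lipophagy induction. The part of bile duct cells in these values was not tested.

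In the haem and iron list the median was 0.087 (6 of 8 with a higher mean), which was 0.0032 without control liver 1, 0.15 without control liver 3 and -0.13 with quantile normalization. Hmox2, the constitutive haem oxygenase, had the most positive change (0.30, standard error 0.078, adjusted p = 0.145, limma), from 33.3 ± 2.202 to 41.1 ± 0.630 FPKM, and 0.18 with quantile normalization. Its sign was opposite to that of Hmox1, and the difference between the genes was not tested. Blvra, which reduces biliverdin, was at 16.6 ± 1.15 and 20.1 ± 2.39 FPKM, and Slc40a1, the iron exporter, had the most negative change (-0.20, standard error 0.093), which was -0.12 without control liver 1 and -0.32 with quantile normalization. In the same livers 6 of 6 tested red blood cell markers had a higher mean. The summed level of 8 was 109 to 136 FPKM in the controls against 122 to 483 FPKM after lipophagy induction, which overlapped. The part of red blood cells in these values was not tested.

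Other antioxidant enzymes had a higher mean in 11 of 14 genes and a median of 0.13, which was -0.026 with quantile normalization. Superoxide dismutase genes Sod1 (1730 ± 75.4 and 2038 ± 146 FPKM) and Sod2 (38.7 ± 1.58 and 45.1 ± 3.37 FPKM) had an unadjusted p of 0.0431 and 0.0349 (limma). Pon1, a paraoxonase that hepatocytes secrete, had the most positive change (0.33, standard error 0.097, adjusted p = 0.166, limma), which was 0.12 with quantile normalization, and Gpx3, the plasma glutathione peroxidase, the most negative (-0.44, standard error 0.12, adjusted p = 0.153, limma). Gpx7 was at 6.27 ± 0.937 and 4.91 ± 0.703 FPKM.

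**Figure D5:**
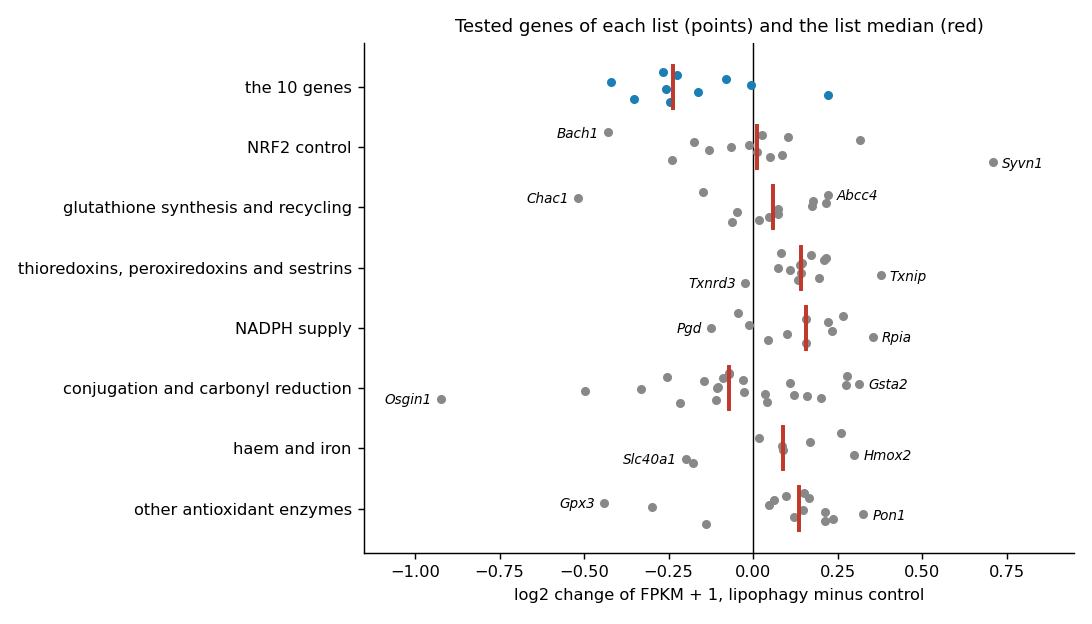
Log2 change of FPKM + 1 (horizontal axis, lipophagy minus control) of the tested genes in each list, with the list median in red and the largest rise and fall in mean named. The median of the 10 genes was -0.24, against -0.072 to 0.16 in the other lists with the authors' scaling, and with quantile normalization the other medians lay between -0.21 and 0.037 and those of NRF2 control, glutathione, haem and iron, and other antioxidant enzymes turned negative.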

How the data were processed

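Total RNA of 3 control and 3 lipophagy livers was made into stranded mRNA libraries and read in 100 bp paired-end mode; the labels and the methods name different sequencers. The authors deposited FPKM values per gene symbol, and the submitters' processing notes name TopHat2 2.0.13, Bowtie2 2.2.3, SAMtools 0.1.19, Cufflinks 2.2.1 and mm10. The annotation and strand setting are not given in the sources used here. Count models do not suit FPKM and were not run.

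Genes averaging 0.5 FPKM or more in the 6 livers (11493) were tested on log2(FPKM + 1), which understates changes of low genes, with limma 3.58.1 in R 4.3.3 (moderated variance with an intensity trend, no covariates, two-sided, Benjamini-Hochberg over all tested genes, threshold 0.05). Ratios of 2 genes were compared by exact permutation tests (scipy 1.17.1). Depth was estimated from the FPKM of 1 fragment in genes with a single GENCODE M21 coding transcript, and coordinates are from RefSeq GRCm38.p6, the same build as mm10. Fragment numbers and intervals from them cover counting error only. The fit was tested on simulated data, where it called 97.5% of genes changed by 2 on the log2 scale. Changes of the members were much smaller, so the simulation does not give the power for changes of their size.

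The rule for named genes took the 10 members, in each list those with the largest rise and fall and any with an adjusted p below 0.05, and the 3 genes most alike to Nqo1 and Hmox1. Other genes are named where a count of 5 or fewer holds them, or as relatives of a member, after their values were seen. Members and lists were chosen with earlier results of these data known. Cell type lists covered hepatocytes, macrophages, neutrophils, lymphocytes, sinusoidal endothelium, stellate, bile duct and red blood cells. Alternatives were a pseudocount of 0.1, no filter or a mean of 1 FPKM, quantile normalization, a common median, no trend, the replicate number as a block, and leaving out each liver. Marker sums without Alb, or without Col1a1 and Col3a1, were added after seeing the data.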

Additional observations from a re-analysis of the deposited data

How the results depend on the processing

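No member passed an adjusted p of 0.05 (limma) as reported or in any alternative, where the lowest was 0.1003 (Hmox1 with quantile normalization), and 9 of the 10 members kept the sign of their change in all. Keap1 turned to 0.0090 without control liver 3 and 0.050 without lipophagy liver 3, within -0.048 to 0.050 over the livers left out. Txnrd3 turned to 0.037 with quantile normalization and ran from -0.10 to 0.047 with a liver left out (0.045 without control liver 1, 0.047 without lipophagy liver 3). The 5 members with an unadjusted p below 0.05 became 2 to 5 with a liver left out (2 without control liver 2 or 3, 3 without lipophagy liver 3), and 7 with quantile normalization. The members' median ran from -0.26 to -0.15 with a liver left out (-0.15 without lipophagy liver 3) and was -0.31 with quantile normalization. Of all tested genes, 3 passed, 1 with no filter and 1 to 11 with a liver left out (7 and 1 on leaving out control liver 2 or 3, 5 and 11 on leaving out lipophagy liver 2 or 3). With an unadjusted p below 0.05, 916 genes were lower (602 to 943 with a liver left out, lowest without control liver 3) and 1327 higher (800 to 1609, lowest without lipophagy liver 1), and 745 were higher with quantile normalization. The median of all tested genes was -0.0044 with no filter, 0.037 at a mean of 1 FPKM and 0.0074 with quantile normalization, against 0.020.

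With quantile normalization the list medians were -0.064 (NRF2 control), -0.0069 (glutathione), 0.037 (thioredoxins), 0.0076 (NADPH), -0.21 (conjugation), -0.13 (haem and iron) and -0.026 (other enzymes). With a liver left out they ran from -0.085 to 0.067 for NRF2 control, 0.019 to 0.070 for glutathione, 0.072 to 0.16 for NADPH and 0.0032 to 0.15 for haem and iron.

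The labels number the livers without saying whether a number marks a pair or a batch. The correlations of the deviations of same-numbered livers were 0.25, 0.23 and -0.057. Those of control and lipophagy livers of different number ran from -0.39 to 0.25. With so few livers these values cannot decide whether same-numbered livers belong together. With the replicate number as a block 43 genes passed over all tested genes, 0 of the members did, 6 had an unadjusted p below 0.05, and the members' changes and ratios were the same values. Depth limited G6pdx most, at an estimated 136 fragments in 1 liver.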

Other observations

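Cell types whose summed levels are not given above had these levels. The summed level of 7 neutrophil markers was 18.0 to 31.3 FPKM in the controls against 15.8 to 18.97 FPKM after lipophagy induction. That of 6 sinusoidal endothelial markers was 23.0 to 28.1 and 26.7 to 42.6 FPKM. No listed marker with a row was at 0 in all livers. The part of these cells in the levels of the antioxidant genes was not tested.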
